A study of Mus musculus with 6 samples.

Results

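Cilia and flagella are built on an axoneme, a cylinder of doublet microtubules that grows from a centriole. Cargo is carried along it by intraflagellar transport (IFT) trains, made of the IFT-B complex for outward and the IFT-A complex for return traffic, and the BBSome links membrane proteins to these trains. Motile axonemes also carry dynein arms, radial spokes and the nexin-dynein regulatory complex, which together generate and control the beat. The mammalian oocyte has no motile cilium, and many of these genes are best known from sperm, multiciliated epithelium or the primary cilium of other cells.

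The genes described here are those whose symbol begins with Ift, Bbs, Tekt, Tctn or Ttc followed by a digit, or with Dnah, Dnaic, Dnali or Rsph, together with Ccdc39, Ccdc40, Ccdc65, Ccdc103, Ccdc114 and Ccdc164. The rule found 97 of 23284 symbols. It uses names and not function: 35 of the 97 are tetratricopeptide (Ttc) genes that were placed in none of the ciliary complexes here, though Ttc18 is axonemal, and several of these act elsewhere in the cell. The axonemal dynein heavy chains carry the older prefix Dnahc in the files.

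RNA was sequenced from mouse oocytes of the germinal vesicle (GV) stage, fully grown and arrested in meiotic prophase, on a mixed C57BL/6-129 strain background. Females were 4 to 6 weeks old, and collection followed 48 hours after a 5 IU dose of the gonadotrophin PMSG. The groups were Lsd1 KO and Control, with 3 samples each and 100 oocytes per sample. Lsd1 is Kdm1a, a histone lysine demethylase; no source used here gives the allele, the Cre driver or the control genotype. Below, KO stands for Lsd1 KO, its libraries are KO1 to KO3, and the Control libraries are C1 to C3; values of single libraries follow that order. Kdm1a itself was at 3.77, 2.80 and 3.23 CPM (counts scaled to library size) in KO1 to KO3, against 73.9, 72.5 and 44.4 CPM in C1 to C3. Library totals ran from 10735422 to 13035045 counts. CPM values are scaled by TMM, errors of levels are SD over 3 libraries, fold changes are KO over Control on the log2 scale ± SE, and adjusted p is that of edgeR's quasi-likelihood test over all 12935 genes tested. The series design gives 3 biological replicates per genotype, but the labels do not say whether these came from separate animals. The p-values thus measure the spread between these samples, part of which may be technical. The 12 oocyte markers summed to 35660, 39869 and 39029 CPM in KO and 29271, 29107 and 24675 CPM in Control, without overlap. Gdf9 alone held 14482, 16950 and 15242 CPM of these sums in KO and 5569, 5586 and 7015 CPM in Control. The median log2 fold change of the 12 was -0.14. Gdf9 (log2 1.36 ± 0.18) and Oosp1 (0.82 ± 0.18) were called higher and none lower, with 3 lower at an unadjusted p under 0.05, 1 by DESeq2 and 0 by limma-voom.

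Of the 97 genes, 77 had enough counts to be tested, and 19 of these passed the threshold of 0.05. That is 24.7%, where 21.3% of all genes tested passed. Higher in KO were 13 (16.9%, beside 11% of all genes), and lower were 6 (7.79%, beside 10.3%). The median log2 fold change of the tested members was -0.12, beside -0.01 for all genes tested. At least 2-fold higher were 10 of the 13, and at least 2-fold lower were 3 of the 6; over all genes tested 7.31% and 4.83% were called at that size. Those past the threshold included 9 that were at least 4-fold higher, which is 11.7% of the tested members beside 3.02% of all genes: Ttc9, Ttc18, Ccdc164, Ccdc40, Ttc21b, Ttc23l, Rsph1, Ccdc65 and Tekt2. Of these 9, only Ccdc164 and Tekt2 had all 3 Control libraries over the filter on low counts, and the rest needed KO libraries to be tested. The plot of the called genes by library shows that in each of the 19 the KO and Control libraries did not overlap. Lack of overlap by itself was seen in 17 tested members with KO higher (22.1%, beside 19.5% of all genes) and in 13 with KO lower (16.9%, beside 19.1%).

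**Figure D1:**
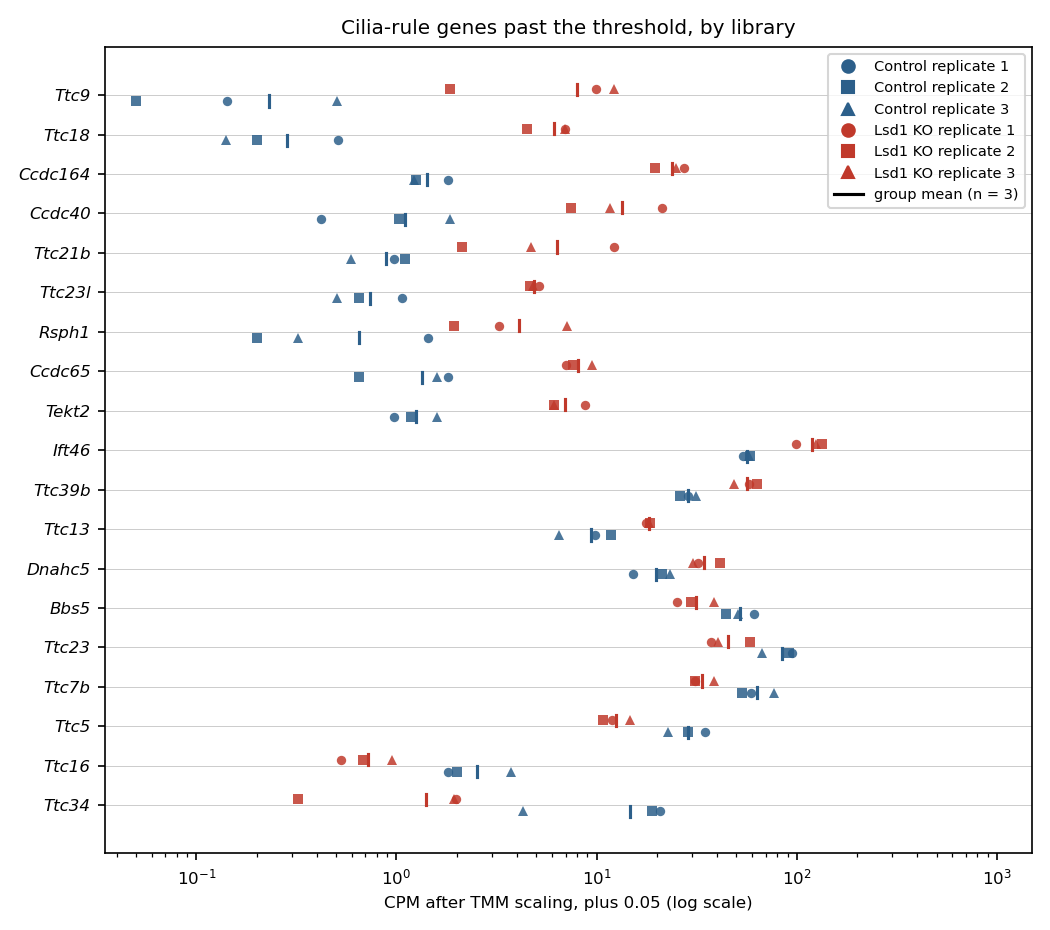
Level of each of the 19 genes past the threshold in every library, as CPM after TMM scaling plus 0.05 on a log axis; symbols are single libraries and vertical bars are group means (n = 3). The 9 genes at the top were at or below 1.81 CPM in every Control library, whereas Ift46, Ttc39b, Ttc13 and Dnahc5 were above 6 CPM in every Control library.

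The members did not move as a block, and the roles differed in how many passed. Among the axonemal classes (dynein chains, docking and nexin-dynein factors, radial spokes and tektins), 6 of 21 tested genes rose (28.6%, beside 11% of all genes). None fell, beside 10.3% of all genes, with 0 lower also at an unadjusted p under 0.05 and by DESeq2 and limma-voom. Of the 33 genes in these classes 12 were not tested. The list of other axoneme and dynein assembly genes, given below, had 3 higher and 1 lower of 20. In the IFT, BBSome and tectonic classes together, the calls were Ttc21b and Ift46, which rose, and Bbs5, which fell. The remaining Ttc genes, grouped by symbol and including the axonemal Ttc18, gave 5 higher and 5 lower of 29 tested. These differences between roles were not tested.

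**Figure D2:**
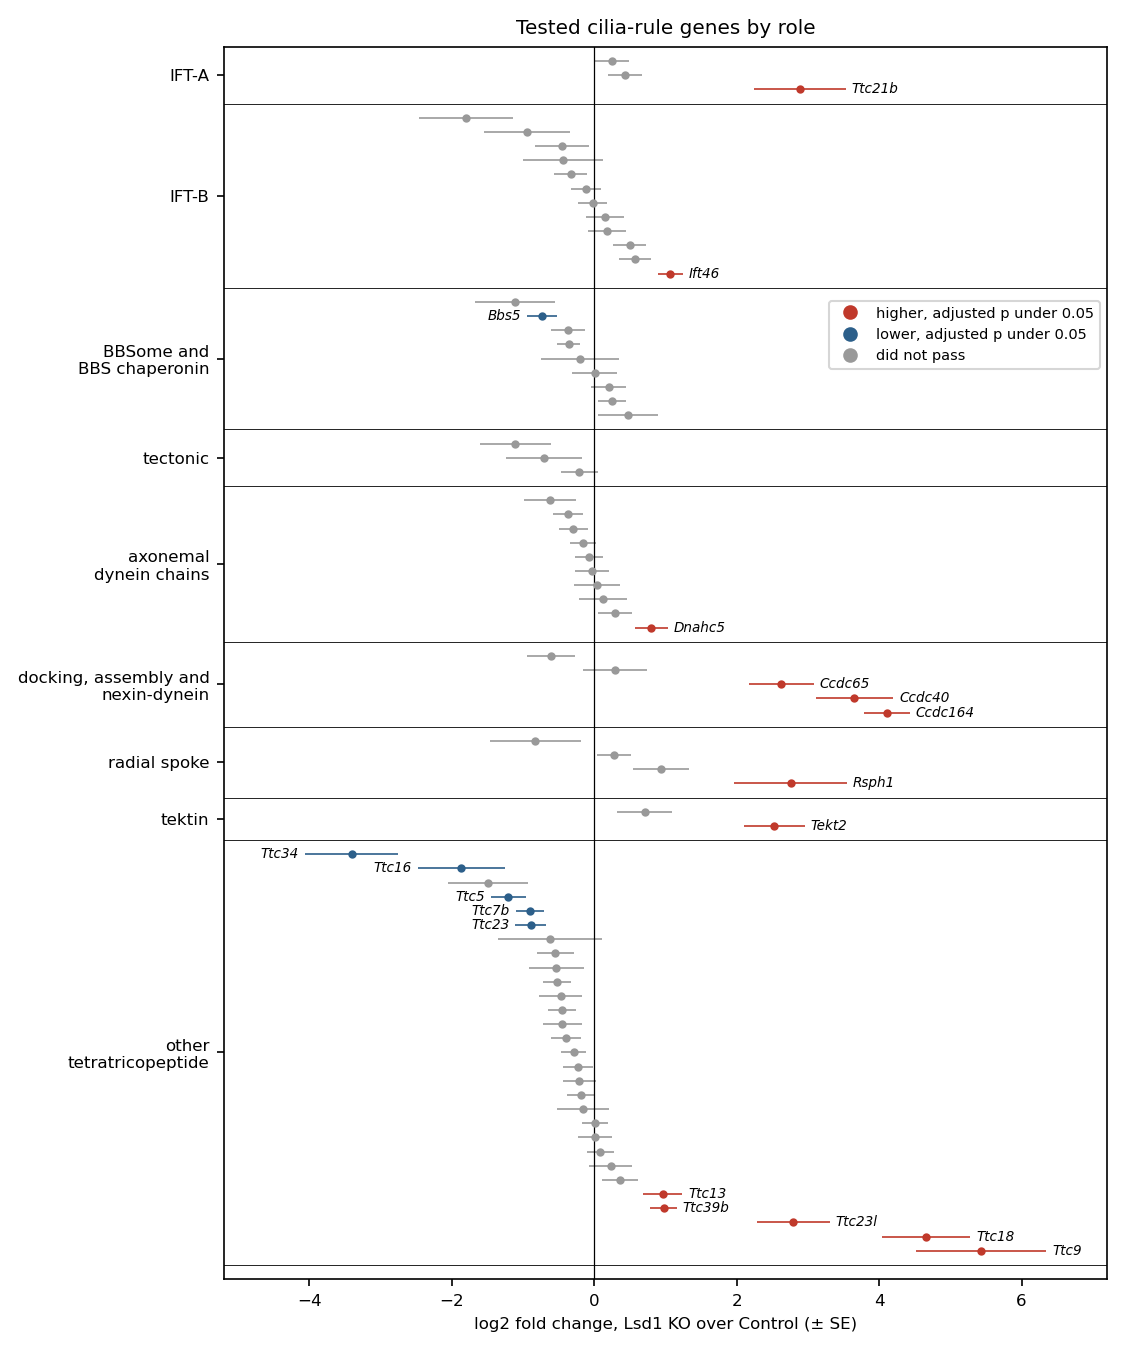
Log2 fold change (KO over Control, ± SE) of the 77 tested genes, grouped by role and sorted within each role. Red and blue points passed an adjusted p of 0.05. Above a log2 fold change of 2 lie 9 genes, and the lowest point is Ttc34 at -3.41. Most IFT, BBSome and dynein genes lie near 0.

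RFX factors bind the X-box, a palindromic element, and the promoters of the members were searched for it. RefSeq windows on GRCm38.p6, from 250 bases before to 50 after a transcript start, were found for 84 of the 97 genes (92 windows), and windows printed here were placed on mm9 by exact match. The search used the 6-base arm GTTGCC and a loose full form, GTNNCC and GNAAC spaced by 3 bases, on both strands; the letters of the arm can lie inside the full form. The full form was present for 13 of 84 members (15.5%) and in 2.49% of all 27025 genes with a window. It was absent from the windows of the 12 higher and the 5 lower members that have a window, and present in 11 of 50 tested members that did not pass. The pattern was matched exactly at that spacing, so near forms were not counted. In Ccdc164 and Ttc23l, printed below, the stretch ending in GGCAAC differs from the full form in its first base only. The arm was present for 3 of 12 higher members, 25 of 84 members and 14.1% of all genes. A match is a description of letters, not a binding site.

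The higher members with the arm before the start are shown first, with the arm (or its reverse complement GGCAAC) in capitals, on chr5:30607878-30607918 (+) for Ccdc164, chr4:126002933-126003058 (-) for Tekt2 and chr15:10488425-10488485 (-) for Ttc23l (mm9, 5′ to 3′ on the gene's strand, ending at the base before the start).
Ccdc164: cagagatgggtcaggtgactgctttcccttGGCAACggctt
Tekt2: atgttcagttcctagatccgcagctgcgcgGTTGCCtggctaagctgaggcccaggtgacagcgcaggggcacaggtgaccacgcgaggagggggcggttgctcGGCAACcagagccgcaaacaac
Ttc23l: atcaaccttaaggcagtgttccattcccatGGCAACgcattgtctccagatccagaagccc
The 8 members that did not pass, carry the full form wholly before the start and could be placed on mm9 are shown beside them, with the full form in capitals and up to 30 bases on either side: Ift57 (chr16:49699290-49699363, +), Ttc26 (chr6:38331461-38331523, +), Bbs7 (chr3:36512389-36512462, -), Tctn2 (chr5:125048666-125048739, +), Dnahc17 (chr11:117990649-117990722, -), Ccdc114 (chr7:53179540-53179584, +), Tekt4 (chr17:25608345-25608418, +) and Ttc17 (chr2:94246863-94246936, -).
Ift57: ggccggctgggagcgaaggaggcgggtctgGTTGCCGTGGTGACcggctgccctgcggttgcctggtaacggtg
Ttc26: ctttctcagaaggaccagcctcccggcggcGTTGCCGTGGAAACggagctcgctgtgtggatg
Bbs7: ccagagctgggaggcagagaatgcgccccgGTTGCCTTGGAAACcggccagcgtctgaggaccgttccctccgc
Tctn2: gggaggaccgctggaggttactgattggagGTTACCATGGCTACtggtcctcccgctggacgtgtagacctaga
Dnahc17: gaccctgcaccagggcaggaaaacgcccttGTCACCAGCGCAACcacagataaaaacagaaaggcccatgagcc
Ccdc114: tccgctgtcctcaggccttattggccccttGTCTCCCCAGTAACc
Tekt4: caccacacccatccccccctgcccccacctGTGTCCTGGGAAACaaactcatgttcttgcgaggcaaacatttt
Ttc17: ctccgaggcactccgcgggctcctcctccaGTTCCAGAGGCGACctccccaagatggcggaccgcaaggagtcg
The arm was also present in the windows of 16 of 50 tested members that did not pass.

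The nexin-dynein regulatory complex joins neighbouring doublets of the axoneme and regulates dynein. Ccdc164, the file's symbol for its subunit Drc1, was at 27.2, 19.6 and 24.8 CPM in the KO libraries and at 1.76, 1.21 and 1.17 CPM in the Control libraries. The KO libraries thus lay far above all Control libraries, and the log2 fold change was 4.11 ± 0.32 (adjusted p = 1.30e-05, 17.2-fold). Ccdc164 lies on mm9 chr5:30607914-30668993. Ccdc65, the Drc2 subunit of the same complex, was at 6.97, 7.58 and 9.43 CPM in KO and at 1.76, 0.603 and 1.54 CPM in Control. Its libraries were well separated, with a log2 fold change of 2.63 ± 0.46 (adjusted p = 0.00228); it lies on chr15:98538625-98553757.

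Ccdc40 works with Ccdc39 as the ruler that sets where dynein arms and spokes attach along the axoneme. Ccdc40 was at 21.1, 7.40 and 11.6 CPM in KO and at 0.370, 0.979 and 1.81 CPM in Control, with a log2 fold change of 3.65 ± 0.55 (adjusted p = 9.83e-04; chr11:119089886-119126550). Its lowest KO library, KO2, was still above the highest Control library. Its partner Ccdc39 was too scarce to test, with 24, 6 and 10 counts in KO and 3, 8 and 3 in Control. Ccdc114, a subunit of the complex that docks the outer dynein arm, was at 5.72 ± 1.09 CPM in KO and 8.74 ± 2.66 CPM in Control and did not pass (log2 -0.61 ± 0.34). Ttc12, needed to assemble dynein arms, was at 6.14 ± 1.18 and 5.02 ± 3.10 CPM and did not pass either. Ccdc103, a dynein arm attachment factor, had no count in KO and 3, 1 and 1 in Control, and the docking subunit Ttc25 had 6 counts in a single KO library and 1 in a Control library; neither was tested.

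Axonemal dynein heavy chains are the large motor subunits of the arms. Of 11 in the files, 10 were tested, and Dnahc5 was the one that passed, while none was lower by edgeR (0 also at an unadjusted p under 0.05 and by DESeq2 and limma-voom). Dnahc5, the outer-arm chain often mutated in primary ciliary dyskinesia, was at 32.0, 41.1 and 30.3 CPM in KO and at 15.1, 21.1 and 23.1 CPM in Control. The groups did not overlap, and the log2 fold change was 0.80 ± 0.23 (adjusted p = 0.0255; chr15:28133507-28401800). Dnahc5 lost the call without KO1 or KO2 or C1 or C2 (adjusted p up to 0.108).

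The other 9 heavy chains did not pass, with log2 fold changes from -0.62 (Dnahc17) to 0.29 (Dnahc8). Dnahc8, a chain of the sperm flagellum, was at 210, 293 and 297 CPM in KO and 172, 176 and 305 CPM in Control, so that the groups overlapped. Per kb of annotated exon its Control mean was 14.9 CPM per kb, above 71.1% of the tested genes with a length, whereas Dnahc6 and Dnahc17 were at 0.5 and 0.641 CPM per kb. The paralogs Dnahc7a and Dnahc7b may share reads, and no level per kb is given for Dnahc7a because its annotated exons span only 612 bases. Dnahc1, of the inner arm, had no count in KO and 5, 1 and 0 in Control. The intermediate chains Dnaic1 and Dnaic2 and the light intermediate chain Dnali1 were not tested; Dnaic1 had 39, 9 and 9 counts in KO and 7, 4 and 5 in Control.

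Radial spokes reach from the doublets towards the central pair, and their heads contain Rsph1, Rsph4a and Rsph9. Rsph1 was at 3.21, 1.89 and 7.09 CPM in KO and at 1.39, 0.151 and 0.271 CPM in Control. All KO libraries were higher, but both groups were widely spread, and the log2 fold change was 2.76 ± 0.79 (adjusted p = 0.0268; chr17:31391964-31414301). The call on Rsph1 was lost without KO1 or KO3 or C2 or C3 (adjusted p up to 0.137), and its log2 fold change was 2.11 without KO3 and 4.19 without C1. Rsph9 was at 6.71 ± 2.26 CPM in KO and 3.50 ± 0.880 CPM in Control and did not pass (adjusted p = 0.109), although its groups did not overlap. Rsph3a, a spoke-stalk gene and the highest of the class per kb of exon (6.37 CPM per kb in Control), was at 16.8 ± 2.51 and 13.9 ± 0.745 CPM and did not pass; its near copy Rsph3b, with which it may share reads (D030054H15Rik also overlaps 298 exonic bases of Rsph3a on the opposite strand), was at 2.43 ± 1.04 and 4.36 ± 3.65 CPM. Rsph4a and Rsph6a were too scarce to test.

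Tektins are filament proteins inside the doublet microtubules. Tekt2 was at 8.66, 6.04 and 6.10 CPM in KO and at 0.925, 1.13 and 1.54 CPM in Control. The libraries within each group were close together, and the log2 fold change was 2.53 ± 0.43 (adjusted p = 0.00203; chr4:125999365-126002932). The annotation places Gm12945, a long noncoding RNA on the opposite strand, across 396 exonic bases of Tekt2, and without a stated strand setting their reads cannot be told apart. Tekt4 was at 9.06, 19.8 and 20.6 CPM in KO and at 8.51, 6.33 and 15.4 CPM in Control; the groups overlapped and it did not pass (log2 0.71 ± 0.39). Tekt1, Tekt3 and Tekt5 were not tested, and Tekt3 had no count in any library.

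In the IFT-A complex, Ttc21b, which encodes the subunit IFT139, was at 12.2, 2.07 and 4.67 CPM in KO and at 0.925, 1.05 and 0.542 CPM in Control. The groups were separate, with a wide spread within KO, and the log2 fold change was 2.89 ± 0.64 (adjusted p = 0.0083; chr2:66022384-66094674). Without KO1 it was 2.01 and did not pass (adjusted p = 0.0800). The core subunits Ift122 (log2 0.25 ± 0.24) and Ift140 (0.43 ± 0.24) did not pass, and Ift140 was at 16.9, 14.7 and 17.9 CPM in KO and 11.3, 13.3 and 12.2 CPM in Control. Wdr35, the IFT-A subunit IFT121, which the symbol rule does not take in, was at 7.38, 4.51 and 9.07 CPM in KO and 0.647, 0.603 and 2.80 CPM in Control (log2 2.37 ± 0.59, adjusted p = 0.0138). Wdr35 did not pass without C1 (adjusted p = 0.0610), and its log2 fold change was 3.45 without C3.

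Of 12 tested IFT-B genes, Ift46 rose and none fell, with 1 lower at an unadjusted p under 0.05 and 0 lower by DESeq2 and limma-voom. Ift46, a core IFT-B subunit, was at 98.7, 134 and 124 CPM in KO and at 54.1, 58.2 and 57.6 CPM in Control. The Control libraries were close to each other and below every KO library, and the log2 fold change was 1.07 ± 0.18 (adjusted p = 0.00183; chr9:44575991-44600797). The other 11 had log2 fold changes from -1.798 (Ttc30b) to 0.57 (Ift52). Ift52 was at 24.9 ± 2.92 CPM against 16.7 ± 2.93 CPM with no overlap (adjusted p = 0.0922), and Ift81 had 46.1, 27.1 and 50.5 CPM in KO against 29.0, 28.7 and 29.8 CPM in Control, the second KO library lying below Control. Ttc30b was at 0.776 ± 0.584 CPM in KO and 2.73 ± 0.425 CPM in Control and did not pass; Ttc30a1 and Ttc30a2, close copies of it, had at most 4 counts in any library. Ift88 and Ift172, both needed for cilium assembly, differed little (log2 0.15 ± 0.27 and 0.18 ± 0.27).

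The 9 BBSome and BBS chaperonin genes were all tested, and Bbs5 was the one that passed. Bbs5, the BBSome subunit that binds membrane phosphoinositides, was at 25.3, 29.8 and 38.8 CPM in KO and at 61.3, 44.2 and 50.7 CPM in Control. The groups did not overlap, and it fell by 0.74 ± 0.21 on the log2 scale (adjusted p = 0.0287; chr2:69485228-69505628). The call on Bbs5 was lost without KO1 or KO2 or C1 (adjusted p up to 0.147). None was higher by edgeR, 0 also at an unadjusted p under 0.05 and by DESeq2 and limma-voom. Bbs4, a BBSome subunit, was at 159, 166 and 142 CPM in KO and 192, 190 and 216 CPM in Control; it did not pass (log2 -0.36 ± 0.16, adjusted p = 0.138) although the groups were separate. Per kb of exon, Bbs4 was at 78.4 CPM per kb in Control, above 93.9% of the tested genes with a length. Bbs9 (log2 0.25), Bbs2 (-0.37), Bbs7 (0.48), Ttc8 (0.20) and the chaperonin-like Bbs10 (0.00) and Bbs12 (-1.12) did not pass.

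Tectonics are membrane and secreted proteins of the transition zone, the gate at the base of the cilium. None of the 3 passed in edgeR, DESeq2 or limma-voom, and 1 was lower at an unadjusted p under 0.05. Tctn1 was at 2.55 ± 1.61 CPM in KO and 4.16 ± 2.0 CPM in Control, Tctn2 at 14.1 ± 2.11 and 16.3 ± 3.74 CPM, and Tctn3 at 1.66 ± 0.327 and 3.57 ± 1.34 CPM. Hvcn1, which was called higher, shares 549 exonic bases with Tctn1 on the opposite strand.

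The remaining Ttc genes hold tetratricopeptide repeats, a fold that mediates protein binding in many pathways. Ttc18, also called Cfap70 and a component of the motile axoneme, was at 6.89, 4.42 and 6.91 CPM in KO and at 0.462, 0.151 and 0.0903 CPM in Control. These are 86, 49 and 77 counts against 5, 2 and 1, with a log2 fold change of 4.66 ± 0.62 (adjusted p = 4.88e-04; chr14:21213412-21271448), and 5.49 without C1. Ttc23l was at 5.13, 4.60 and 4.76 CPM in KO and 1.02, 0.603 and 0.452 CPM in Control; the libraries of each group were close, and the log2 fold change was 2.79 ± 0.51 (adjusted p = 0.00299; chr15:10429857-10488423). Ttc9 was at 9.86, 1.8 and 12.1 CPM in KO and at 0.0925, 0 and 0.452 CPM in Control, with a log2 fold change of 5.43 ± 0.92 (adjusted p = 0.00199; chr12:82732356-82765928). KO2 was much lower than the other two KO libraries, and with 1, 0 and 5 counts in Control the fold is poorly fixed: it was log2 7.23 without C3 and 4.81 without C2. Ttc9 and Ttc18 passed the filter on low counts through the KO libraries alone, so a gene of this kind could be tested only if it was higher there. Of 184 such genes in the whole data set, 127 were called higher. The filter asks for 3 libraries. Rsph1 and Ttc23l had 1 Control library over it, and Ttc21b, Ccdc40 and Ccdc65 had 2, so these also needed KO libraries to be tested.

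Ttc39b, a regulator of sterol metabolism, rose from 28.7 ± 2.57 to 56.5 ± 7.31 CPM (log2 0.98 ± 0.19, adjusted p = 0.00388). Ttc13 went from 9.32 ± 2.70 to 18.1 ± 0.450 CPM (log2 0.96 ± 0.28, adjusted p = 0.0286) and kept the call only without C2 among the 6 fits that leave out a library (adjusted p up to 0.0742). Ttc34 fell from 20.8, 18.8 and 4.25 CPM in Control to 1.92, 0.271 and 1.89 CPM in KO. Its C3 was far below the other Control libraries but above KO, and the log2 fold change was -3.41 ± 0.66 (adjusted p = 0.00397). Gm13112 shares 106 exonic bases with Ttc34 on the opposite strand. Ttc5, a cofactor of the p300 acetyltransferase in the stress response, fell from 28.6 ± 6.00 to 12.4 ± 2.01 CPM (log2 -1.20 ± 0.24, adjusted p = 0.00515). Ttc7b, part of the complex that holds phosphatidylinositol 4-kinase at the plasma membrane, fell from 62.9 ± 12.3 to 33.7 ± 4.43 CPM (log2 -0.90 ± 0.20, adjusted p = 0.0084).

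Ttc23 fell from 84.3 ± 15.2 to 45.3 ± 11.2 CPM (log2 -0.90 ± 0.22, adjusted p = 0.0129) and did not pass without KO1, KO3 or C2 (adjusted p up to 0.0784). Ttc16 was at 0.670 ± 0.211 CPM in KO and 2.47 ± 1.07 CPM in Control (log2 -1.87 ± 0.61, adjusted p = 0.0460). Its call was lost in each of the 6 fits that leave out a library and in 5 other settings (adjusted p up to 0.172), and it shares 403 exonic bases with Tor2a on the opposite strand, which was at 10.1 and 9.67 CPM and was not called. The co-chaperone Ttc1 was at 142, 113 and 160 CPM in KO and 86.9, 77.3 and 159 CPM in Control. Only C3 of Ttc1 reached the KO range; without that library it passed (adjusted p = 0.0251), and with it did not.

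Levels were also set per length, since CPM takes no account of gene length. The length is that of all annotated exons of a gene merged, and the RNA was amplified. How counts scale with this length here was not tested, so comparisons between genes, including the percentiles, are approximate. Divided by the length of annotated exons, the 9 genes at least 4-fold higher lay between 0.0542 and 0.679 CPM per kb in Control, at the 0.327th to 14.3th percentile of the tested genes with a length, and between 0.678 and 9.59 CPM per kb in KO. The median Control level was 0.316 CPM per kb in these 9, 3.82 CPM per kb in the other 67 tested members (Dnahc7a left out) and 5.52 CPM per kb over all tested genes. A 4-fold rise over Control was the rule that chose these 9, and Ttc9 and Ttc18 entered the test through KO alone. All of the 9 but Ccdc164 and Tekt2 needed KO libraries to enter it, so the low Control levels of the 9 are a description. None of the other 67 was below 0.379 CPM per kb in Control, which is above the median of these 9. In the upper part of the range of the 9, Bbs1, Dnahc6, Ttc26 and Dnahc17 did not pass. They were at 0.379, 0.5, 0.541 and 0.641 CPM per kb. Ttc16, at 0.387 CPM per kb, was lower. Ccdc164 reached 9.59 CPM per kb in KO, a level close to that of Ift46 in Control (9.95 CPM per kb). As each sample is a pool of oocytes, more transcript in each oocyte and more oocytes with the transcript cannot be told apart.

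**Figure D3:**
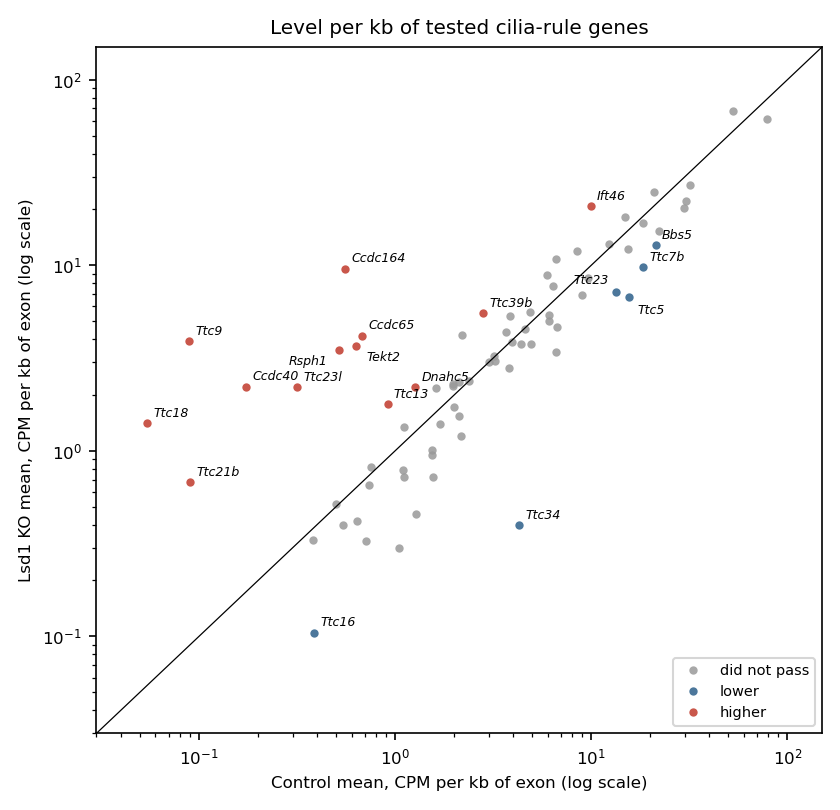
Mean level per kb of annotated exon in Control (horizontal) and KO (vertical) for 76 tested genes on log axes (Dnahc7a left out); the line marks equal levels. Genes at least 4-fold higher lie at or below 0.679 CPM per kb in Control, while the 6 lower genes run from 0.387 (Ttc16) and 4.29 (Ttc34) to 21.3 CPM per kb (Bbs5) there.

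The KO libraries were not alike for the genes that rose. KO2 was the lowest of the 3 in 8 of the 9 genes at least 4-fold higher and in 8 of all 13 higher members (61.5%, beside 47.9% of all genes called higher). The margin was small in Tekt2 (6.04 against 6.10 CPM in KO3) and Ttc23l (4.60 against 4.76 CPM in KO3). No such share was taken over all genes at least 4-fold higher. Without KO2, 12 members were higher and 5 lower; 11 and 4 of these were also called with all libraries. Markers of blood and immune cells (Ptprc, Lyz2, Cd68, Tyrobp and others, 10 in the list) also differed between the KO libraries. Of the 7 tested, 1 (Cd68) was higher, and their summed level was 164.3, 29.6 and 157 CPM in KO1 to KO3 and 47.1, 21.0 and 63.9 CPM in Control. The sums of the other marker lists, described next, did not share 1 order of the KO libraries. The granulosa and epithelium lists summed highest in KO2 (556 and 265 CPM), the theca and multiciliated lists lowest (16.2 and 9.83 CPM). Cyp19a1 (328, 405 and 239 CPM in KO1 to KO3) was the largest part of the granulosa sums. Cdh1 (175, 231 and 145 CPM) was the largest part of the epithelium sums. These sums thus do not give the order of the other markers. Among those, Inha, Slc18a2 and Epcam were lowest in KO2, but Fshr, Nr5a2 and Ovgp1 were lowest in KO1.

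Markers of other cells that could be present were read in the same libraries. Of 12 multiciliated epithelium markers none of the 3 tested was called by edgeR, DESeq2 or limma-voom, and 0 had an unadjusted p under 0.05. Their summed level was 9.83 to 19.1 CPM in KO and 12.5 to 16.7 CPM in Control. Foxj1, the transcription factor that defines motile ciliated cells, had no count in any library, Sntn and Tmem212 had 1 count each, and Gm6320 (Mcidas) had 3 in all. The granulosa and cumulus list summed to 484 to 556 CPM in KO and 180 to 215 CPM in Control, with 3 higher and 1 lower of 12 tested. Cyp19a1 was at 324 against 36.8 CPM and made up most of the sum in KO. The defining markers Foxl2, Fshr and Amh were at 3.32, 3.51 and 0.820 CPM in KO and 0.899, 1.36 and 0.398 CPM in Control. The theca list summed to 16.2 to 52.2 and 10.75 to 18.3 CPM (1 higher, none lower of 4), and the surface and oviduct epithelium list to 203 to 265 and 189 to 293 CPM (3 higher, none lower of 6: Upk3b, Epcam and Ovgp1). Cdh1, which was not called, made up most of the epithelium sums, at 183 CPM in KO and 221 CPM in Control. Upk3b, Epcam and Ovgp1 were at 7.97, 24.1 and 2.32 CPM in KO. In Control they were at 1.87, 6.70 and 0.623 CPM. At an unadjusted p under 0.05, 7 granulosa, 3 blood and immune, 2 theca and 4 epithelium markers were higher, and 1, 0, 0 and 0 were lower. DESeq2 called 3, 3, 2 and 2 of these lists higher and limma-voom 2, 0, 1 and 2, with 1 granulosa marker lower in each and 0 in the other lists. The median log2 fold changes of the 4 lists were 1.33, 1.71, 0.87 and 1.52, beside -0.01 for all genes tested. The part of these cells in the changes of the cilia genes was not tested.

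Cilia genes outside the symbol rule were read from 8 fixed lists, in which 14 of 109 tested genes were higher and 8 lower, together 20.2% beside 21.3% of all genes. The counts of each list stand beside 11% higher and 10.3% lower over all genes tested, and differences between the lists were not tested. The transition zone gave 5 higher and none lower of 20, with 3 lower at an unadjusted p under 0.05 and 0 lower by DESeq2 and limma-voom. Als2cr4 (Tmem237) was at 32.8, 33.7 and 34.9 CPM in KO and 9.99, 4.67 and 6.23 CPM in Control, a tight and separate pair of groups (log2 2.28 ± 0.28, adjusted p = 2.99e-04). Iqcb1 (Nphp5) rose from 32.1 ± 5.61 to 75.3 ± 10.01 CPM (1.23 ± 0.20). Tmem67 and Nek8, named after their values were seen, were also higher (1.51 and 1.28).

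Of the BBSome partners 2 of 7 were lower and none higher (0 higher also at an unadjusted p under 0.05 and by DESeq2 and limma-voom). Bbip1, a small BBSome subunit, went from 65.8 ± 5.29 to 38.7 ± 5.74 CPM (log2 -0.77 ± 0.18) and Lztfl1, which regulates BBSome traffic, from 116 ± 17.3 to 66.9 ± 8.59 CPM (-0.79 ± 0.19), both close to the -0.74 of Bbs5. Both lost the call without KO1 (adjusted p up to 0.0738). None of 11 tested IFT motor genes was called by edgeR, where 1 was higher and 2 were lower at an unadjusted p under 0.05, and 2 were lower by DESeq2 and 1 by limma-voom.

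Among centriole genes 2 of 18 were higher and 2 lower. Cep97 (1.51 ± 0.36, named after its value was seen) and 6330503K22Rik (Ccp110, 0.92 ± 0.17, at 186 against 98.2 CPM), which together cap the centriole and hold back cilium growth, rose. The distal appendage gene Ccdc41 (Cep83, -1.13 ± 0.19) and the centriole duplication gene Stil (-1.28 ± 0.26) fell. In the membrane and signalling list 2 of 18 were higher and 1 lower. The GTPase Arl3, which releases lipid-anchored cargo in cilia, went from 18.0 ± 3.78 to 33.2 ± 4.51 CPM (0.88 ± 0.23) and its partner Arl2bp from 4.09 ± 0.834 to 16.8 ± 2.65 CPM (2.03 ± 0.30). Arl3 lost the call without KO1 or KO3 and with the length and GC correction (adjusted p up to 0.0618). Gli3, a Hedgehog transcription factor, was at 2.41, 46.5 and 37.3 CPM in KO and 92.4, 95.1 and 253 CPM in Control (-2.36 ± 0.69). The call on Gli3 was lost without KO3 or C3 and by DESeq2 (adjusted p up to 0.107), and its log2 fold change was -1.77 without KO1 and -1.72 without C3.

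Of the other axoneme and dynein assembly genes 3 of 20 were higher and 1 lower. The assembly factor Lrrc6 (1.02 ± 0.27) and the central-pair genes Gm101 (Cfap221, 1.35 ± 0.39) and Spag6 (1.46 ± 0.44, named after its value was seen) rose, and the assembly factor Heatr2 fell (-1.15 ± 0.25). Lrrc6 and Gm101 kept the call in 2 and 1 of the 6 fits that leave out a library (adjusted p up to 0.0703 and 0.118). Of the RFX factors, Rfx1, Rfx2, Rfx3, Rfx4 and Rfx7 did not pass, and Rfx2 was at 83.1, 65.8 and 89.8 CPM in KO and 67.0, 74.7 and 83.5 CPM in Control. Rfx5, best known for immune genes, fell (-0.64 ± 0.19), Rfx6 was at 1.47 against 0.252 CPM (2.48 ± 0.70), and Trp73, which acts upstream of multiciliated cell fate, fell (-1.22 ± 0.36). These 3 calls were lost without 4, 6 and 4 of the 6 single libraries (adjusted p up to 0.169), and that of Rfx6 also with no filter (adjusted p = 0.0652) and with the replicate block (adjusted p = 0.0541).

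**Figure D4:**
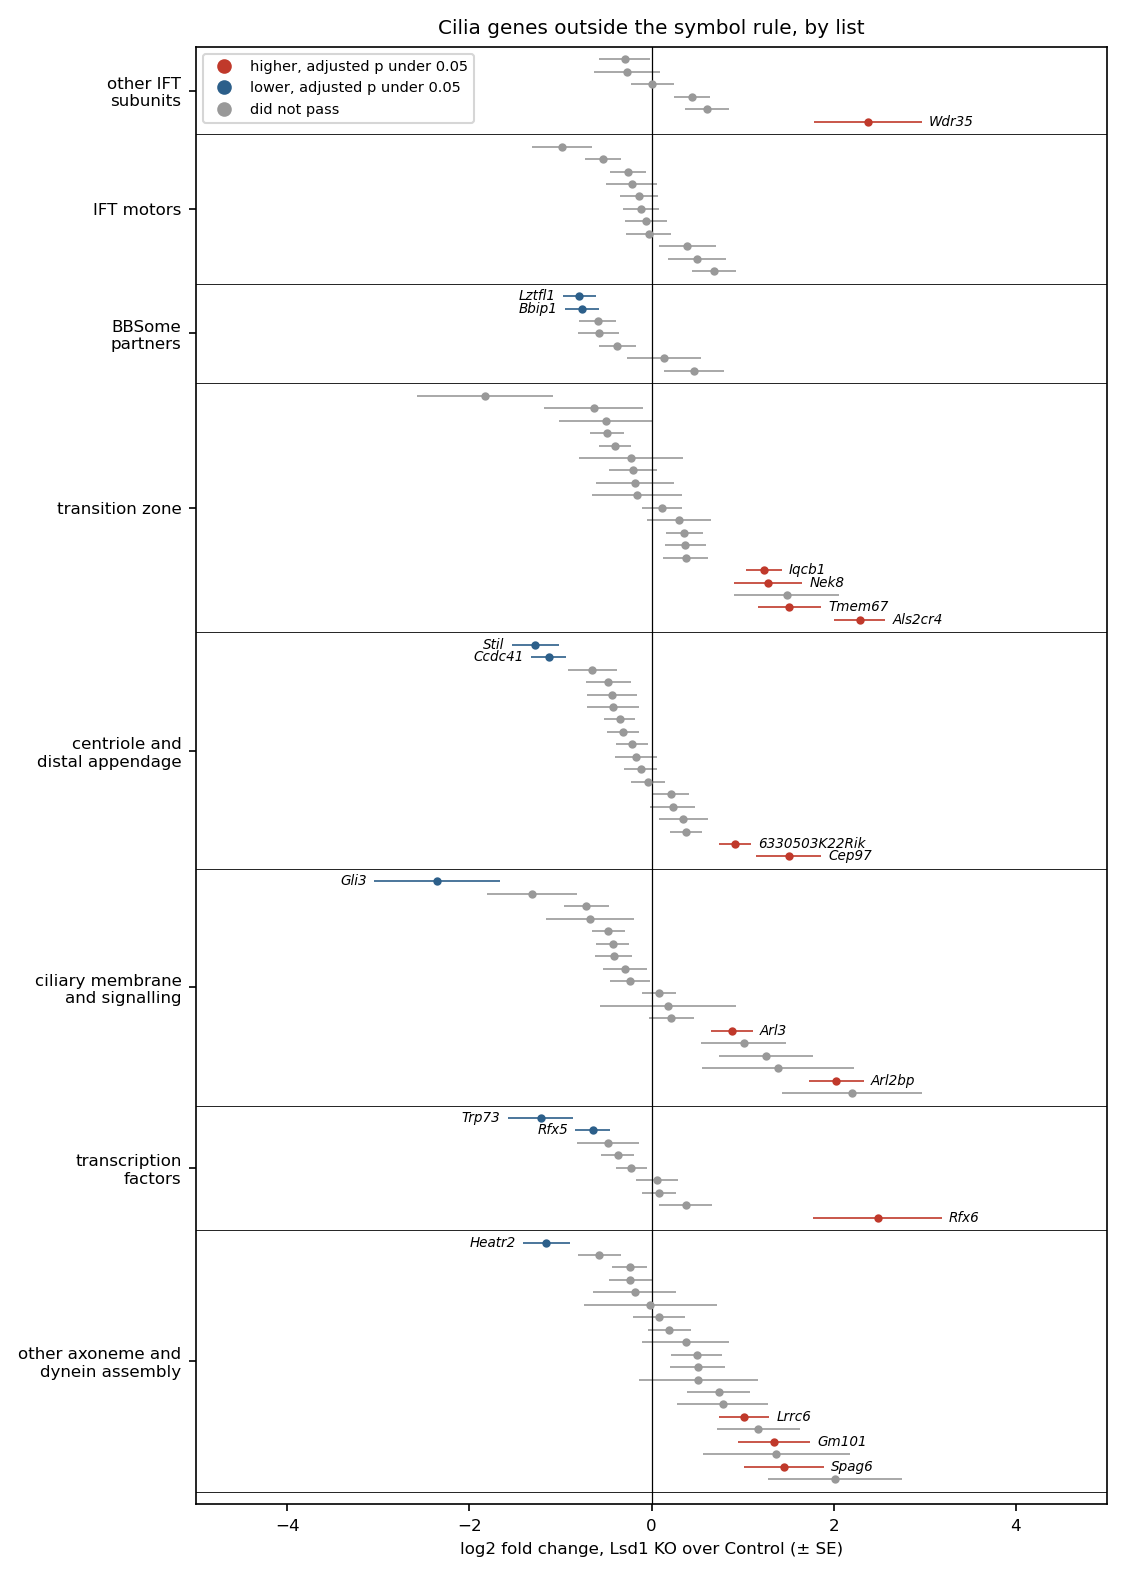
Log2 fold change (Lsd1 KO over Control, ± SE) of 108 of the 109 tested cilia genes that the symbol rule does not take in, by list. The transition zone genes Als2cr4, Tmem67, Nek8 and Iqcb1 lie above a log2 fold change of 1, and the IFT motors hold none of the genes past the threshold.

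Of the 20 members that were not tested, 2 (Tekt3 and Ttc24) had no count in any library and 18 had at least 1, with at most 39 counts in a library. When the filter was dropped these 18 were tested and none passed by edgeR, where 13 members were higher and 5 lower. Ttc21a, a relative of Ttc21b, had 22, 3 and 14 counts in KO and 0, 7 and 0 in Control, and it passed in the fit without C2.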

How the data were processed

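The deposited tables hold counts per gene symbol, which the authors made with CASAVA 1.8.2, TopHat2 2.0.7 and HTSeq 0.5.3p9 on mm9, per the submitters' processing notes. RNA was amplified before sequencing, per the labels' protocols, so counts include amplification noise. No source used here gives the annotation or strand setting. Groups came from the labels' genotype. The members and lists were chosen with earlier results of these data known. Genes passing filterByExpr (minimum count 10) were fitted with TMM and the quasi-likelihood test of edgeR 4.0.16 in R 4.3.3, with Benjamini-Hochberg adjustment over 12935 genes and a threshold of 0.05. The common biological coefficient of variation was 27.2%. The scripts were tested on simulated data. Alternatives were 3 other scalings, DESeq2 1.42.0, limma-voom (limma 3.58.1), 2 filters, the replicate number as a block, a length and GC correction, thinning, stricter thresholds and leaving out each library. Named were all members past the threshold, the member of each role with the highest mean CPM, all members of small roles, and up to 3 called genes of each list with the smallest adjusted p. Other genes were added to show partners or values near the threshold. Exon lengths and positions are GENCODE M1 on mm9 (NCBIM37). Of the listed genes, 1 is counted in its list but not reported here.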

Additional observations from a re-analysis of the deposited data

How the results depend on the processing

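Of the 19 members past the threshold, 12 kept the call in all 6 fits that leave out a library and in every other setting that tested them at the same threshold, and none reversed. Requiring at least 10 CPM in 3 libraries left 48 members to test and 5 higher, and it removed 7 of these 12 (Ccdc40, Ccdc65, Tekt2, Ttc18, Ttc23l, Ttc34 and Ttc9). At an adjusted p of 0.01, 3 members were lower, and over all genes 676 were higher and 497 lower. When a 2-fold change was also required, 3 members were lower, and over all genes 945 were higher and 625 lower. Leaving out 1 library gave 9 to 12 members higher and 3 to 7 lower (3 without KO1). Over all genes it gave 932 to 1466 higher (932 without C1) and 638 to 1346 lower (638 without KO1, 727 without KO3 and 781 without C2). These fits hold fewer samples. With the replicate number as a block, 13 members were higher and 5 lower, and over all genes 1270 and 1098. The deviations of same-numbered samples correlated at -0.03, 0.11 and -0.02, and not every sample correlated best with its own number. The labels do not say whether the numbers pair samples, and correlations this weak, over 3 libraries per group, cannot settle it. Genes with few counts limit the rest: Ttc9, Ttc18 and Rsph1 rest on low Control counts, and 20 members were too scarce to test.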
